A study of Mus musculus with 3 samples.

Results

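The genes described are 10 that build triglyceride, coat the droplets in which it is stored or release it again, namely Gpam, Dgat1, Dgat2, Plin2, Plin4, Plin5, Cidec, Cideb, Pnpla2 and G0s2. They were chosen by gene symbol from tables of 23850 rows, and each symbol matched 1 row in each of 3 libraries. The libraries were made from ribosomal RNA-depleted total RNA of mouse liver at 16 weeks of age on a mixed C57BL6J/FVB background, 1 library per group. Ercc1 DR stands for Ercc1 delta/- mice under diet restriction, Ercc1 AL for Ercc1 delta/- mice fed ad libitum and wt AL for wildtype mice fed ad libitum. ERCC1 is a subunit of an endonuclease of DNA repair, and both mutant groups carry 1 null allele and 1 delta allele of its gene. The labels used here do not give the degree or length of the restriction, the sex, the time of day or the number of animals behind a library. Because diet was varied only in the mutant, Ercc1 DR against wt AL differs in genotype and diet at once.

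Triglyceride is made from glycerol phosphate and activated fatty acids. Glycerol-phosphate acyltransferases such as GPAM add the first fatty acid, and the diacylglycerol acyltransferases DGAT1 and DGAT2 add the last. The product is stored in droplets coated by perilipins and enlarged or remodelled by CIDE proteins. PNPLA2, also called ATGL, starts the release of the stored fatty acids, and the small protein G0S2 binds and inhibits it. In liver the size of this store changes with feeding and fasting.

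Levels are given in FPKM as deposited, a measure of fragments scaled to transcript length and library size, on which genes can be compared within a library. Each value came with a deposited lower and upper bound, which describe 1 library and not the spread between animals. With 1 library per group no test was made. The half-width of these intervals went from 2.66% of the midpoint, for Gpam in Ercc1 DR, to 19.9%, for Cidec in wt AL. In 11 of 30 member values the deposited FPKM lay above its own interval, among them every value of Dgat2, Plin2 and G0s2. The median log2 FPKM ratio over the 9053 genes that reached 1 FPKM in every library was 0.34 for Ercc1 DR against Ercc1 AL, 0.49 for Ercc1 AL against wt AL and 0.78 for Ercc1 DR against wt AL. Log2 ratios below are of FPKM + 1 after this median was set to 0, unless called as deposited, and a gene was counted as higher or lower from a 2-fold ratio on. Adding 1 makes ratios smaller where levels are low. The targeted gene Ercc1 was at 0.475 FPKM in Ercc1 DR, 0.573 in Ercc1 AL and 0.461 in wt AL, with overlapping intervals. That value is summed over the gene and does not check the labels.

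Sequence before the transcription start is shown for 4 genes that differ most between the libraries, Gpam, Cidec and Pnpla2, which were highest in Ercc1 DR, and G0s2, which was highest in wt AL. Sequences are from RefSeq (GRCm38.p6), which held a start for 8 of the 10 members. They are written 5′ to 3′ on the gene's strand, and within 250 bases before the start the longest stretch without an annotated exon is shown. Capitals mark a match, on either strand, to 6 motifs. These were the E-box CACGTG, the forkhead element GTAAACA, the nuclear receptor half-site AGGTCA, the box CCAAT, the GC box GGGCGG and the core of the promoter box TATAAA.
Gpam, chr19:55099633-55099727, minus strand: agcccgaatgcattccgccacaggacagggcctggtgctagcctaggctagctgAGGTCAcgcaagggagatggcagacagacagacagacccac
Cidec, chr6:113435761-113436010, minus strand: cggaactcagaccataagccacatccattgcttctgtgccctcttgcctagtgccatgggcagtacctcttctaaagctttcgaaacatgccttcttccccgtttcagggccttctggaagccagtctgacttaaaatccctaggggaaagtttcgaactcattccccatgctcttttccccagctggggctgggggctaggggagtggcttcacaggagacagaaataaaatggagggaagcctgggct
Pnpla2, chr7:141454938-141455187, plus strand: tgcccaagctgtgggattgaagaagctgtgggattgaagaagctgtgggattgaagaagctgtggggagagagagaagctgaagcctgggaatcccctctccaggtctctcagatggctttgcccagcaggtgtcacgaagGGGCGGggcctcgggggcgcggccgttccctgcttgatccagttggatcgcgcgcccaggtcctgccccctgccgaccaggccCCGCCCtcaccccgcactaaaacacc
G0s2, chr1:193273218-193273337, minus strand: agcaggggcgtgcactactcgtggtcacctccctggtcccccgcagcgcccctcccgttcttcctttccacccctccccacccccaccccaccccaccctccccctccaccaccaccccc
The Gpam stretch held the nuclear receptor half-site AGGTCA, which 14.02% of 32851 RefSeq windows of 250 bases hold. That of Pnpla2 held the GC box GGGCGG at 2 positions, once on each strand, and 32.7% of windows hold at least 1. A GC box also lies nearer to the start of Gpam and of G0s2, outside the stretches shown. None of the other motifs matched these stretches, and Cidec matched none of the 6. These matches are letters in a window and were not tested as sites.

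Of the synthesis enzymes among the members, Gpam passed the 2-fold line in the restricted mutant after rescaling, and the DGAT genes did not. Agpat6, Lpin1 and Acsl4, synthesis genes described below, had larger ratios than Gpam in Ercc1 DR against Ercc1 AL. Gpam, the mitochondrial acyltransferase of the first step (chromosome 19, 55069734 to 55099447, minus strand, mm10), was at 26.4 FPKM in Ercc1 DR, 9.45 in Ercc1 AL and 4.60 in wt AL. The 3 intervals did not overlap, and the order was Ercc1 DR, Ercc1 AL, wt AL. Its log2 ratio was 1.08 in Ercc1 DR against Ercc1 AL, with 0.97 to 1.16 allowed by the deposited bounds, so that this value lay at the 2-fold line. It was 0.47 (0.32 to 0.60) in Ercc1 AL against wt AL and 1.58 (1.44 to 1.68) in Ercc1 DR against wt AL. As deposited they were 1.39, 0.90 and 2.29. When libraries were instead set to equal sums, leaving out the 100 highest genes, Ercc1 DR against Ercc1 AL gave 0.995, just under the line.

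Dgat2, the DGAT enzyme with the higher level in each library (chromosome 7, 99153663 to 99182713, minus strand), was at 40.2 FPKM in Ercc1 DR, 35.2 in Ercc1 AL and 26.2 in wt AL. It was the member with the highest level in Ercc1 DR, although its interval overlapped that of Cideb there. Its log2 ratios were close to the median gene, -0.14 in Ercc1 DR against Ercc1 AL, -0.06 in Ercc1 AL against wt AL and -0.16 in Ercc1 DR against wt AL. As deposited they were 0.19, 0.41 and 0.60, so their direction depends on the scaling. Dgat1, an unrelated enzyme with the same reaction (chromosome 15, 76502015 to 76511818, minus strand), was at 4.67 FPKM in Ercc1 DR, 2.15 in Ercc1 AL and 2.01 in wt AL. The intervals of the freely fed libraries overlapped each other, and Ercc1 DR lay above both. Its log2 ratio was 0.60 (0.33 to 0.83) in Ercc1 DR against Ercc1 AL, and 0.85 as deposited, both short of the 2-fold line. The value for Ercc1 AL against wt AL was -0.27 (-0.58 to 0.00), and 0.06 as deposited. That for Ercc1 DR against wt AL was 0.32 (0.00 to 0.58), and 0.91 as deposited. Without adding 1, deposited Dgat1 FPKM in Ercc1 DR was 2.17-fold that in Ercc1 AL and 2.32-fold that in wt AL. Whether Dgat1 passes 2-fold thus depends on the scaling and the pseudocount.

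**Figure D1:**
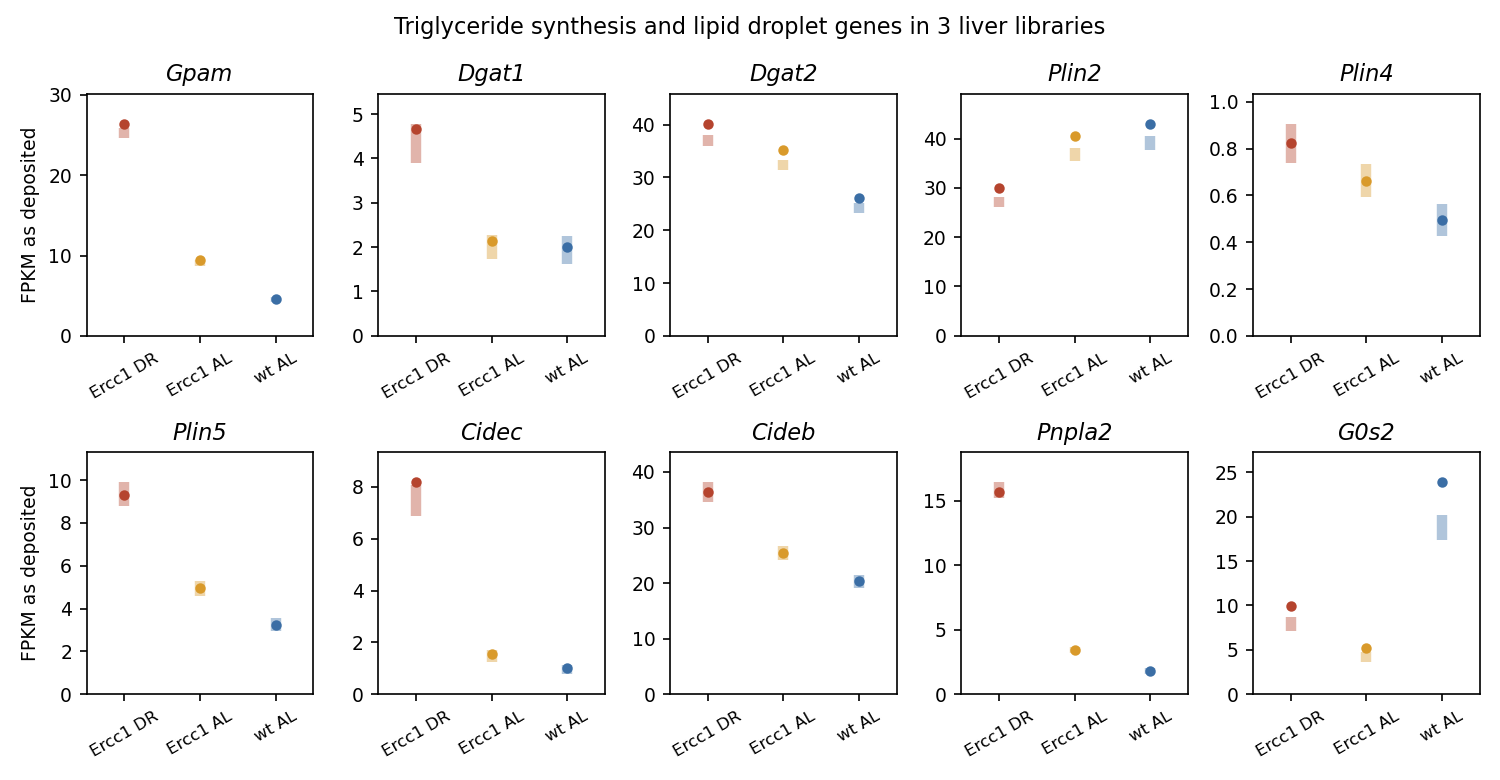
FPKM as deposited (vertical axis, from 0, a scale of its own per gene) of the 10 genes in Ercc1 DR, Ercc1 AL and wt AL, 1 library each. Points are the deposited values and bars the deposited intervals. Every gene but Plin2 and G0s2 stood highest in Ercc1 DR on this scale without rescaling. Plin2 stood lowest there, and G0s2 stood highest in wt AL at 23.9 FPKM.

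Among the perilipins, Plin2 had its lowest deposited level in the restricted mutant, while Plin5 and Plin4 had their highest there. Plin2, the main droplet coat of hepatocytes (chromosome 4, 86656565 to 86670059, minus strand), was at 29.95 FPKM in Ercc1 DR, 40.5 in Ercc1 AL and 43.0 in wt AL. The intervals of both freely fed libraries overlapped each other, and Ercc1 DR lay below them. It was the member with the highest level in Ercc1 AL and wt AL and the third in Ercc1 DR, after Dgat2 and Cideb. The log2 ratio was -0.75 (-0.85 to -0.65) in Ercc1 DR against Ercc1 AL, -0.57 (-0.66 to -0.46) in Ercc1 AL against wt AL and -1.27 (-1.37 to -1.16) in Ercc1 DR against wt AL. Only the last was past the 2-fold line, and as deposited it was -0.51, short of it. The as deposited values were -0.42 in Ercc1 DR against Ercc1 AL and -0.08 in Ercc1 AL against wt AL. Plin2 was the member whose deposited FPKM was lower in Ercc1 DR than in both freely fed libraries.

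Plin5, the perilipin of oxidative tissues that tethers droplets to mitochondria (chromosome 17, 56111601 to 56117548, minus strand), was at 9.32 FPKM in Ercc1 DR, 4.94 in Ercc1 AL and 3.25 in wt AL. The intervals did not overlap. Its log2 ratio was 0.50 (0.34 to 0.68) in Ercc1 DR against Ercc1 AL, 0.09 (-0.10 to 0.28) in Ercc1 AL against wt AL and 0.62 (0.44 to 0.81) in Ercc1 DR against wt AL. As deposited the last was 1.28 and past 2-fold. Plin4, a perilipin known mainly from adipocytes and muscle, lies on the same strand 1798 bp from Plin5 (chromosome 17, 56100591 to 56109802). It was at 0.823 FPKM in Ercc1 DR, 0.663 in Ercc1 AL and 0.493 in wt AL, the lowest member in each library. Since it was below 1 FPKM in all 3, it is left out of the counts below. Its log2 ratios were -0.01, -0.02 and -0.02 in Ercc1 DR against Ercc1 AL, Ercc1 AL against wt AL and Ercc1 DR against wt AL, and 0.13, 0.16 and 0.29 as deposited.

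The CIDE genes differed from each other in how far Ercc1 DR stood from the rest. Cidec, also called FSP27, which makes droplets fuse and grow (chromosome 6, 113424636 to 113435755, minus strand), was at 8.18 FPKM in Ercc1 DR, 1.56 in Ercc1 AL and 1.01 in wt AL. The intervals did not overlap, 6.88 to 8.07 in Ercc1 DR, 1.23 to 1.71 in Ercc1 AL and 0.766 to 1.15 in wt AL. The log2 ratio was 1.59 (1.29 to 1.78) in Ercc1 DR against Ercc1 AL, 0.08 (-0.21 to 0.36) in Ercc1 AL against wt AL and 1.64 (1.32 to 1.83) in Ercc1 DR against wt AL, and 1.84, 0.35 and 2.19 as deposited. With its low level in the freely fed libraries, the size of the ratio depends on the pseudocount, and with a pseudocount of 5 it was 0.86 in Ercc1 DR against Ercc1 AL and 0.83 in Ercc1 DR against wt AL.

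Cideb, the CIDE protein of hepatocytes that takes part in loading lipid onto VLDL (chromosome 14, 55754055 to 55758424, minus strand), was at 36.4 FPKM in Ercc1 DR, 25.4 in Ercc1 AL and 20.3 in wt AL. Relative to the median gene it differed little, with log2 ratios of 0.18 (0.04 to 0.31), -0.17 (-0.31 to -0.01) and 0.05 (-0.09 to 0.20) for Ercc1 DR against Ercc1 AL, Ercc1 AL against wt AL and Ercc1 DR against wt AL, and 0.50, 0.31 and 0.81 as deposited. In GENCODE M21, 76.3% of its exonic bases overlap exons of Nop9 on the other strand, and whether counting used strand is not stated. Nop9 was at 2.46 FPKM in Ercc1 DR, 1.76 in Ercc1 AL and 1.09 in wt AL, and its share in the Cideb value was not measured, so Cideb is uncertain.

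The lipase and its inhibitor had opposite orders in the outer libraries. Pnpla2, the lipase of the first step of lipolysis (chromosome 7, 141455188 to 141460743, plus strand), was at 15.7 FPKM in Ercc1 DR (interval 15.2 to 16.4), 3.41 in Ercc1 AL (3.16 to 3.66) and 1.81 in wt AL (1.61 to 2.003). Ercc1 DR lay far above the freely fed libraries, and no intervals overlapped. The log2 ratio was 1.63 (1.51 to 1.78) in Ercc1 DR against Ercc1 AL, 0.30 (0.12 to 0.49) in Ercc1 AL against wt AL and 1.94 (1.79 to 2.12) in Ercc1 DR against wt AL, and 1.92, 0.65 and 2.57 as deposited. Among 19093 official symbols with a value, Pnpla2 ranked 1539 by FPKM in Ercc1 DR and 5911 in wt AL, and it ranked 4457 of 19074 in Ercc1 AL, a measure that no scaling between libraries enters.

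G0s2, the inhibitor of that lipase (chromosome 1, 193272160 to 193273188, minus strand), was at 9.95 FPKM in Ercc1 DR, 5.17 in Ercc1 AL and 23.9 in wt AL. The wt AL library was highest, Ercc1 AL lowest, and the intervals did not overlap. The log2 ratio was 0.53 (0.21 to 0.79) in Ercc1 DR against Ercc1 AL, -2.45 (-2.62 to -2.12) in Ercc1 AL against wt AL and -1.91 (-2.10 to -1.64) in Ercc1 DR against wt AL. As deposited these values were 0.83, -2.01 and -1.18. Only 0.124% of the official symbols measured in Ercc1 AL against wt AL had a lower ratio than G0s2. All 3 deposited values of G0s2 lay above their intervals, which were 7.09 to 8.70, 3.62 to 4.72 and 17.4 to 20.2 FPKM in Ercc1 DR, Ercc1 AL and wt AL, and the intervals kept the same order.

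Counted over the 9 members with at least 1 FPKM in either library, Gpam, Cidec and Pnpla2 passed the 2-fold line upwards in Ercc1 DR against Ercc1 AL, 3 in all, and none passed it downwards. Of 12295 genes measured in this comparison 3.07% were that much higher and 11.9% that much lower. As deposited the same members were counted, beside 6.47% and 8.65% of all genes. The members' median log2 ratio was 0.53, and that of all genes measured was -0.06. Among genes with at least 5 FPKM in either library, 3 of 8 members were higher and none lower. Beside them 352 of 5252 genes were higher and 1040 lower.

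For the mutant on free feeding, Ercc1 AL against wt AL, 1 of 9 members was at least 2-fold lower, G0s2, and none was higher. The background was 4.9% lower and 2.3% higher of 12294 genes, 2.2% lower and 5.7% higher as deposited. The members' median log2 ratio was -0.06, and that of all genes measured was 0.01. The other 8 members lay between -0.57 (Plin2) and 0.47 (Gpam).

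Set against wildtype, Ercc1 DR had Gpam, Cidec and Pnpla2 at least 2-fold higher and Plin2 and G0s2 as far lower than wt AL, 3 and 2 of 9 members, beside 5.93% higher and 16.4% lower of 12054 genes. As deposited 4 members were higher, Plin5 among them, and 1 was lower, G0s2, beside 24.1% and 8.56% of all genes. The median was 0.32 for the members and -0.03 for all genes measured. Among genes with at least 5 FPKM in either library, 3 of 8 members were higher and 2 lower. Beside them 671 of 5212 genes were higher and 1067 lower. This comparison shares its libraries with the other 2 and adds no independent measurement. The share of higher genes among all genes past the line was 20.5%, 32.0% and 26.6% in Ercc1 DR against Ercc1 AL, Ercc1 AL against wt AL and Ercc1 DR against wt AL, against 42.8%, 72.2% and 73.8% as deposited.

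**Figure D2:**
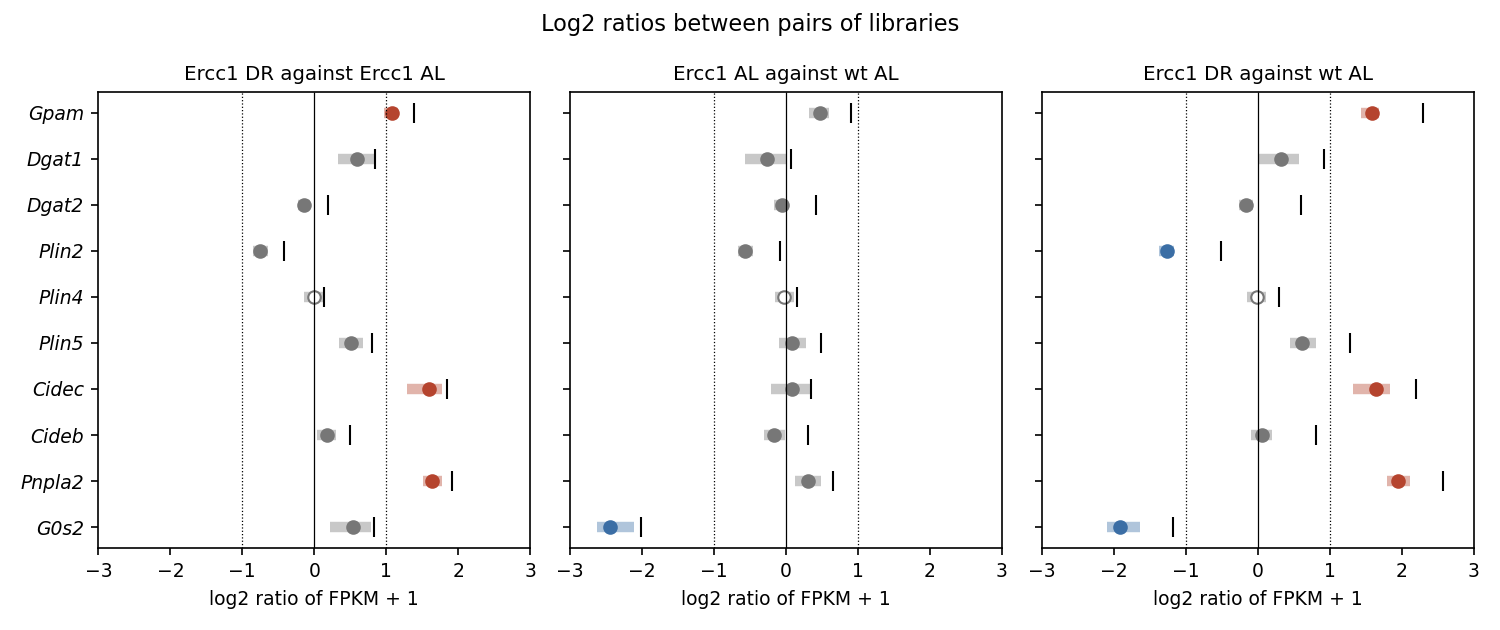
Log2 ratio of FPKM + 1 (horizontal axis) of each gene in the 3 comparisons, after rescaling (circles, open for Plin4, which was below 1 FPKM in every library) and as deposited (black ticks). Bars give the range that the deposited bounds allow after rescaling, dotted lines a 2-fold ratio, red higher and blue lower. Pnpla2 reached 1.63 in Ercc1 DR against Ercc1 AL, and G0s2 lay at -2.45 in Ercc1 AL against wt AL.

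Quotients of 2 members within a library involve no scaling between libraries. The 5 pairs were chosen after the values were seen. Pnpla2 over G0s2, lipase over inhibitor, was 1.58 in Ercc1 DR, 0.660 in Ercc1 AL and 0.0757 in wt AL. The quotient of the interval midpoints was 2.004, 0.819 and 0.0962 in that order of libraries, so the order stood with either value. It was thus 2.39-fold higher in Ercc1 DR than in Ercc1 AL and 8.72-fold higher in Ercc1 AL than in wt AL. Between Ercc1 DR and Ercc1 AL both genes were higher in Ercc1 DR, Pnpla2 4.60-fold and G0s2 1.93-fold in deposited FPKM, while between Ercc1 AL and wt AL Pnpla2 was 1.89-fold higher and G0s2 at 0.217 times its wt AL level.

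Plin5 over Plin2 was 0.311 in Ercc1 DR, 0.122 in Ercc1 AL and 0.0757 in wt AL, so the coat transcripts stood closest to each other in the restricted mutant, though Plin2 was the more abundant in each library. Gpam over Dgat2, first over last step, was 0.657 in Ercc1 DR, 0.268 in Ercc1 AL and 0.176 in wt AL. Dgat2 over Dgat1 was 8.60 in Ercc1 DR, 16.4 in Ercc1 AL and 13.0 in wt AL, and the ranges allowed by the bounds overlapped between the freely fed libraries. Cideb over Cidec was 4.45 in Ercc1 DR, 16.3 in Ercc1 AL and 20.2 in wt AL, with the same overlap and with the limit on Cideb given above.

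**Figure D3:**
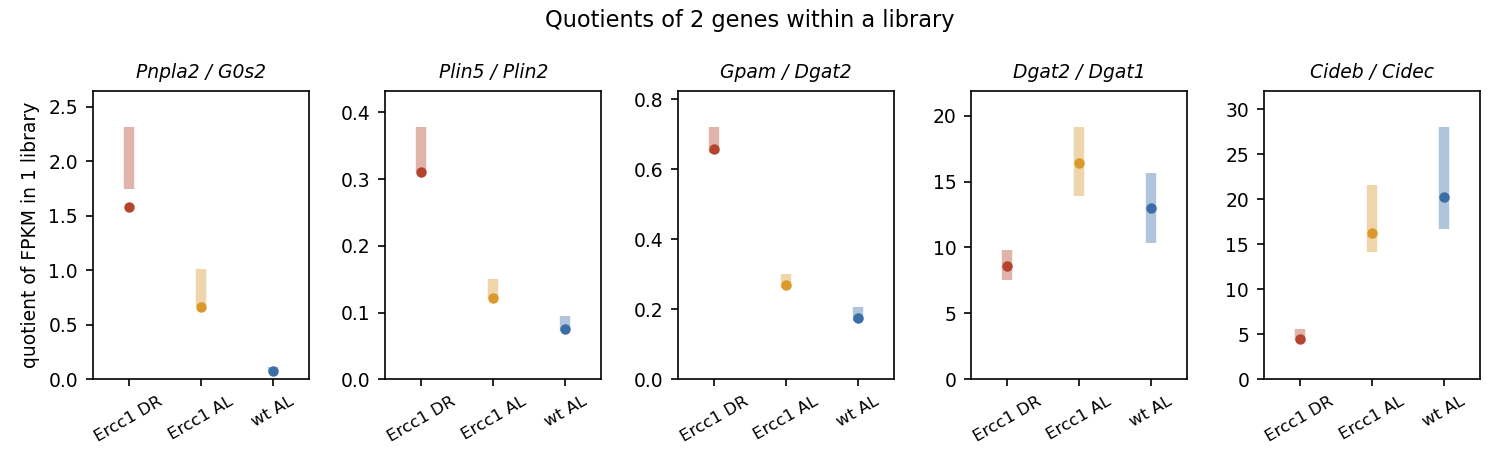
Quotient of the FPKM of 2 genes within a library (vertical axis, from 0) for 5 pairs in Ercc1 DR, Ercc1 AL and wt AL. Points use the deposited FPKM and bars the range that the deposited bounds allow, which need not hold the point, since some FPKM values lie above their own interval. Pnpla2 over G0s2 stood at 1.58 in Ercc1 DR and 0.0757 in wt AL.

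Other genes of the pathway were taken from 4 lists. Of 19 glycerolipid synthesis genes, 16 were measured in Ercc1 DR against Ercc1 AL, 3 were higher and 1 lower, with a median log2 ratio of 0.26. As deposited 5 were higher and none lower. The higher ones were Lpin1, a phosphatidate phosphatase, Agpat6 (now Gpat4), an acyltransferase of the first step in the endoplasmic reticulum, and Acsl4, which activates long fatty acids. Lpin1 was at 73.4 FPKM in Ercc1 DR and 21.3 in Ercc1 AL, a log2 ratio of 1.41. Agpat6 was at 43.0 FPKM in Ercc1 DR and 13.1 in Ercc1 AL (1.33), and Acsl4 at 51.2 and 17.2 FPKM in the same libraries (1.20). The lower gene was Mogat2, a monoacylglycerol acyltransferase, at 1.69 FPKM in Ercc1 DR and 3.93 in Ercc1 AL, a log2 ratio of -1.11 that was -0.87 as deposited.

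Between the freely fed libraries, 1 of 16 synthesis genes was higher and none lower (2 and none as deposited), with a median of 0.09. The higher one was Acsl4, at 17.2 FPKM in Ercc1 AL and 5.04 in wt AL (1.15), while Lpin1, at 21.3 FPKM in Ercc1 AL and 8.26 in wt AL, had a log2 ratio of 0.81. Against wt AL, 3 of 15 were higher in Ercc1 DR and none lower (7 and none as deposited), Acsl4 at 2.39, Lpin1 at 2.26 and Agpat6 at 1.503, with a median of 0.25.

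Of 13 genes of droplet coat and structure, 11 were measured. In Ercc1 DR against Ercc1 AL 1 was higher (2 as deposited) and none lower. It was Hsd17b13, a droplet-bound dehydrogenase of hepatocytes, at 73.8 FPKM in Ercc1 DR and 28.5 in Ercc1 AL (1.01). None was past the line in Ercc1 AL against wt AL (1 higher as deposited), and Hsd17b13 had a log2 ratio of -0.64. Against wt AL 1 was higher in Ercc1 DR (4 as deposited) and none lower, Hsd17b11, a related droplet enzyme, at 97.6 FPKM in Ercc1 DR and 21.6 in wt AL (1.36). The medians were 0.18, -0.03 and 0.22 for Ercc1 DR against Ercc1 AL, Ercc1 AL against wt AL and Ercc1 DR against wt AL.

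Of 10 lipolysis genes, 9 were measured in Ercc1 DR against Ercc1 AL and 10 in the other comparisons. Lpl, the lipase that frees fatty acids from lipoproteins, was the gene past the line in Ercc1 DR against Ercc1 AL, at 6.71 FPKM in Ercc1 DR and 1.33 in Ercc1 AL (1.48), and none was lower. As deposited 2 were higher, the other being Ces1g at 1.22 (0.90 after rescaling). None was past it in Ercc1 AL against wt AL, as deposited too, with Ces1d, a triglyceride hydrolase, nearest at -0.98. Lpl (1.52) and the carboxylesterase gene Ces1g (1.26) were higher in Ercc1 DR against wt AL. Mgll, which splits the last fatty acid off, was lower there, at 10.1 FPKM in Ercc1 DR and 16.7 in wt AL, a log2 ratio of -1.40 that was -0.67 as deposited. Abhd5, the coactivator of PNPLA2, was at 7.45 FPKM in Ercc1 DR, 6.46 in Ercc1 AL and 5.08 in wt AL, with log2 ratios of -0.11 in Ercc1 DR against Ercc1 AL and -0.12 in Ercc1 AL against wt AL, and 0.18 and 0.29 as deposited. The list's medians were 0.26, -0.17 and -0.06 for Ercc1 DR against Ercc1 AL, Ercc1 AL against wt AL and Ercc1 DR against wt AL.

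Of 8 regulators of lipid storage genes, 1 was higher and none lower in Ercc1 DR against Ercc1 AL (2 higher as deposited), with a median of 0.45. It was Ppargc1a, the coactivator of fasting and mitochondrial genes, at 3.20 FPKM in Ercc1 DR and 0.811 in Ercc1 AL (1.01). Foxo1, a transcription factor held back by insulin, was at 6.21 FPKM in Ercc1 DR and 2.62 in Ercc1 AL (0.72). Between Ercc1 AL and wt AL none of 7 measured was past the line, as deposited too, and Pparg, a regulator of fat storage, was at 0.632 FPKM in Ercc1 AL and 1.31 in wt AL (-0.74). Insig2, which retains SREBP precursors, was higher in Ercc1 DR against wt AL, at 44.9 FPKM in Ercc1 DR and 11.1 in wt AL (1.17), 1 of 8 beside 4 as deposited.

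**Figure D4:**
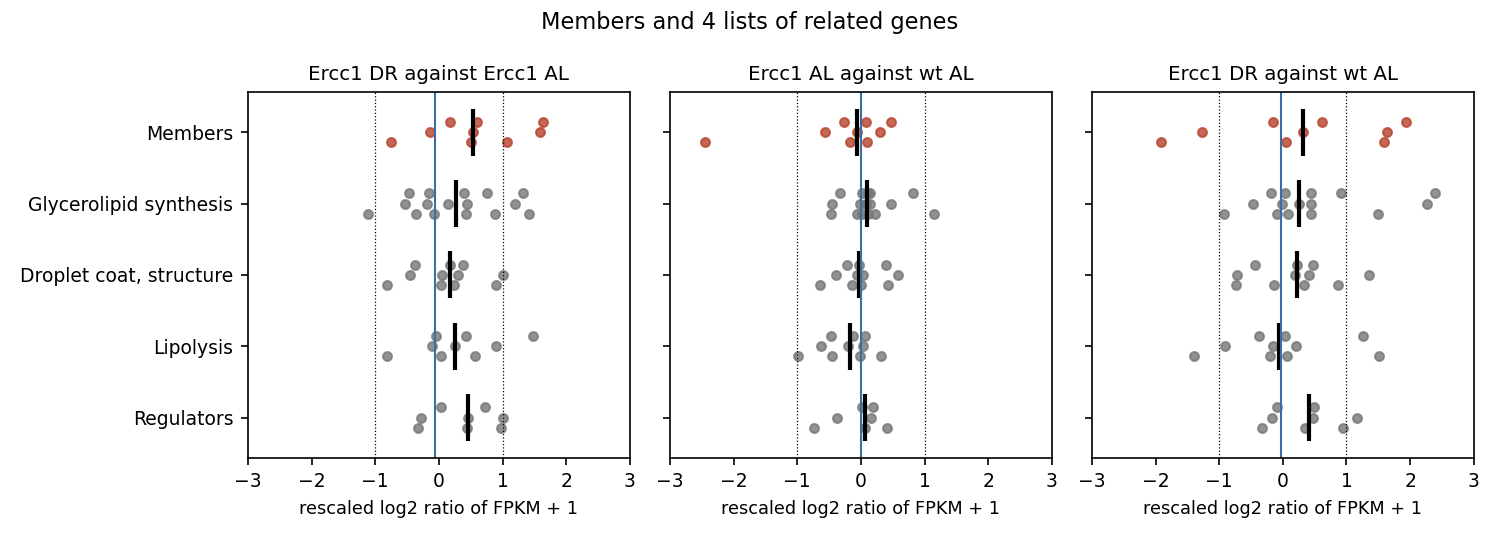
Rescaled log2 ratio of FPKM + 1 (horizontal axis) of the 9 measured members and of 4 lists of related genes, 1 point per gene, in the 3 comparisons. Black bars are medians, the blue line the median of all genes measured and dotted lines a 2-fold ratio. In Ercc1 DR against Ercc1 AL the members' median was 0.53, beside -0.06 for all genes measured.

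The labelled tissue was checked on hepatocyte markers. Albumin had no estimate in any library, and the other 7 of 8 markers summed to 8261 FPKM in Ercc1 DR, 3753 in Ercc1 AL and 2464 in wt AL. Of these 7, 3 were at least 2-fold higher in Ercc1 DR against Ercc1 AL and in Ercc1 DR against wt AL, and none in Ercc1 AL against wt AL. As deposited 4, all 7 and 2 were higher in these comparisons, in that order. Among them in Ercc1 DR against Ercc1 AL were Cps1 (log2 ratio 1.60) and Ttr (1.06). Like Gpam, Cidec and Pnpla2, the list was highest in Ercc1 DR, and its part in those ratios was not tested. In bulk tissue fewer cells of a type and less RNA per cell cannot be told apart.

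Fat tissue expresses Cidec, Plin4, Pnpla2 and G0s2 strongly. Of 7 adipocyte markers, Adipoq was at 0.149 FPKM in Ercc1 DR, 0.492 in Ercc1 AL and 0.320 in wt AL, and Lep, Cfd, Plin1 and Cidea were also under 1 FPKM in each library. Retn was at 18.9 FPKM in Ercc1 DR, 46.1 in Ercc1 AL and 18.5 in wt AL and Fabp4 at 4.19, 2.93 and 1.16 FPKM in those libraries, and the list summed to 24.1, 50.8 and 20.6 FPKM. Without Retn the list summed to 5.15 FPKM in Ercc1 DR, 4.68 in Ercc1 AL and 2.12 in wt AL. The Adipoq intervals of Ercc1 DR and wt AL overlapped, and that of Ercc1 DR lay below that of Ercc1 AL. Of the 2 markers measured, Retn was lower in Ercc1 DR against Ercc1 AL (-1.57, and -1.24 as deposited). Neither passed the 2-fold line in the other comparisons after rescaling. As deposited, Retn was higher in Ercc1 AL against wt AL (1.27) and Fabp4 in Ercc1 DR against wt AL (1.27). The list's part in the ratios of the members was not tested. All 7 stellate cell markers summed to 44.2 FPKM in Ercc1 DR, 39.7 in Ercc1 AL and 22.6 in wt AL, with none past 2-fold after rescaling in any comparison. All 7 macrophage markers summed to 13.5, 20.0034 and 15.4 FPKM in the same order. Marco was lower in Ercc1 DR against wt AL (-1.28, and -0.83 as deposited, short of the line), and none of the others was past the line. The macrophage list's median log2 ratio was -0.64 in Ercc1 DR against Ercc1 AL, beside -0.06 for all genes measured. It was 0.01 in Ercc1 AL against wt AL, beside 0.01, and -0.87 in Ercc1 DR against wt AL, beside -0.03.

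The members with the widest range over the rescaled libraries were G0s2, Pnpla2 and Cidec. The search covered 4450 official symbols that reached 5 FPKM somewhere, and the genes nearest to each were found by the Euclidean distance of the 3 centred log2 values. For G0s2 they were Scd3 (0.22), Me1 (0.30) and Inmt (0.33). For Pnpla2 they were St3gal5, Megf9 and C1qbp, at 0.03 to 0.06, and for Cidec Ugt1a1, Ppl and Lpl, at 0.08 to 0.10. With 3 libraries such likeness is not particular to the genes named for Pnpla2 and Cidec. Of the 4450 symbols searched, 45 lay within 0.25 of Pnpla2 and 54 of Cidec, while 1 lay that near to G0s2.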

How the data were processed

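Total RNA from 3 groups of mouse livers, 1 library each, was depleted of ribosomal RNA and sequenced with a TruSeq protocol, per the labels' protocols. The authors deposited FPKM values with a lower and an upper bound and a status code per gene, per the file headers, on the mm10 build, per the submitters' processing notes. For the counting tool, its version, its annotation and its use of strand, the entry here is: not given in the sources used. Rows with the status HIDATA or FAIL, 55 and 1 in Ercc1 DR, 91 and 5 in Ercc1 AL and 59 and 3 in wt AL, were treated as missing, and no member was among them. Depth is not given, so precision is described by the deposited bounds, which cover 1 library only. The deposited start counts from 0 and is printed counting from 1.

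Where a symbol had several rows, the one with the largest average FPKM was used, which left 23356 symbols. For each pair of libraries the median log2 ratio of FPKM was set to 0, splitting the shift evenly between both, and log2 ratios of FPKM + 1 were taken over genes with at least 1 FPKM in either library (Python 3.11.15, pandas 2.3.3, numpy 2.4.6). The range beside a ratio sets the lower bound of one library against the upper bound of the other. No test was possible with 1 library per group, and 10 alternative settings were tried. The procedure was tested on simulated data in which few genes changed, each raised or lowered at random. That setting does not cover the uneven shares of higher and lower genes given above. The genes named were the members, the 3 list genes with the largest ratio per comparison, the genes with the nearest pattern and some chosen after their values were seen. Official symbols leave out names of predicted genes and clones, of small RNAs, of pseudogenes and of immune receptor segments. The members and lists were chosen with earlier results of these data known.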

Additional observations from a re-analysis of the deposited data

How the results depend on the processing

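Over 10 alternative settings no called ratio of a single member changed sign, and 192 of 240 ratios stayed within the range of their deposited bounds. That share is no measure of robustness. Settings that changed only the filter on FPKM repeat the main ratio by construction, and the 1.5-fold threshold recomputes none. As deposited, most ratios fell outside the range. In Ercc1 DR against Ercc1 AL the count of higher members was 1 with a pseudocount of 5, Pnpla2, in place of 3, and 2 with libraries set to equal sums, leaving out the 100 highest genes, where Gpam was at 0.995. With a pseudocount of 5, Cidec also dropped out in Ercc1 DR against wt AL, at 0.83. With a 1.5-fold threshold 1 member, Plin2, was lower in Ercc1 DR against Ercc1 AL in place of none. In Ercc1 DR against wt AL the count of lower members was 1 as deposited, in place of 2, since Plin2 is called after rescaling and not as deposited. G0s2 was the member called lower in Ercc1 AL against wt AL in each setting. Pnpla2 stayed past 2-fold in each setting, at 1.10 to 1.92 in Ercc1 DR against Ercc1 AL and 1.20 to 2.57 in Ercc1 DR against wt AL. Directions of Dgat2 and Plin4 in all comparisons and of Dgat1 and Cideb in Ercc1 AL against wt AL turned with the scaling, by its construction. No paired analysis was possible because each group has 1 library, and for the same reason no library could be left out.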
